A study of Homo sapiens with 72 samples.

Results

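Genomic regions that carried histone H3 dimethylated at lysine 4 (H3K4me2) away from gene starts in both Raji and REH cells are described here. Peaks of H3K4me2 from the 3 untreated Raji and 3 untreated REH libraries were merged into 23498 regions, and 7999 of these (34%) were called in all 6 libraries. Of the 7999, 356 lay more than 5 kb from every protein-coding or long non-coding RNA (lncRNA) start in GENCODE release 44. The 112 of these 356 with no peak of the trimethylated form, H3K4me3, in any of 12 Raji and REH libraries are called the shared distal regions below. They made up 1.40% of the shared H3K4me2 regions. They were chosen by measured values, namely the H3K4me2 peaks of untreated Raji and REH and the lack of H3K4me3 peaks in either line, and by their distance from starts, so none of these is a finding.

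H3K4me3 is the methylation state of active promoters, where it sits on the nucleosomes beside a transcription start. H3K4me2 marks these flanks too, but is also found at enhancers, the distant elements through which lineage transcription factors act on their target genes, where H3K4me3 is low. In B cells such elements are bound by factors of the ETS, RUNX, E protein, EBF and IRF families. H3K27me3 is laid down by the Polycomb complex PRC2 and marks silenced genes.

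The study profiled histone marks by CUT&Tag, in which an antibody guides a transposase to cut and tag the DNA beside a mark. Raji is a Burkitt lymphoma line, and REH and NALM6 are lines from B cell precursor acute lymphoblastic leukemia. Each line is 1 culture model of 1 patient's disease, grown either untreated or overnight, as the labels give it, with 1 nM bryostatin, a marine macrolide that binds and modulates protein kinase C. There were 3 libraries of each mark for each line and treatment, 54 in all. Nothing in the labels says that replicates came from separate cultures, so p-values measure the spread between libraries, which may be technical.

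The values are the authors' SEACR peaks, in which total signal is coverage in RPKM summed along a peak. Depth, read from the steps of the peak heights, was 6.70 to 23.4 M mapped reads for the H3K4me2 libraries in RPKM. Over all 18 H3K4me2 libraries, a library held 7130 to 22540 peaks, the lowest of them in untreated NALM6 replicate 1. In Raji it was 6.70 to 13.9 M in untreated and 15.6 to 18.8 M in treated H3K4me2 libraries, with no overlap. In REH the ranges were 13.7 to 18.8 and 18.2 to 22.8 M. The replicate 1 libraries of NALM6, 6 in all, were scaled in another, unstated way and had short peaks. The untreated replicate 2 Raji library labelled H3K27me3 had peaks over 89.7% of the shared near-start regions with H3K4me3, against 0.786% and 11.1% in the other untreated Raji libraries of that mark, and goes against its label. Starts of 8 B lineage markers, PAX5, EBF1, CD22 and VPREB1 among them, carried H3K4me3 in at least 2 of 3 untreated libraries for 7 of 8 in Raji, 6 of 8 in REH and 8 of 8 in NALM6, with VPREB1 listed at 0 in Raji and REH. None of the T cell, myeloid, erythroid or hepatocyte markers examined did.

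The sequences below show what the shared distal regions look like beside a promoter. Each window holds 300 bases on the plus strand of hg38, centred on the segment of maximum signal in whichever of the 6 untreated libraries was highest there for its scale. None of them overlaps an annotated exon. The first pair contrasts the intronic region of IKZF1, the gene of the lymphoid zinc finger factor Ikaros, at chr7:50338516-50338815, with the 200 bases at chr7:50304466-50304665 before the IKZF1 start, taken from RefSeq (GRCh38.p14). Capitals mark CG dinucleotides, of which the intronic window has 2 and the promoter 26.
IKZF1 intronic region: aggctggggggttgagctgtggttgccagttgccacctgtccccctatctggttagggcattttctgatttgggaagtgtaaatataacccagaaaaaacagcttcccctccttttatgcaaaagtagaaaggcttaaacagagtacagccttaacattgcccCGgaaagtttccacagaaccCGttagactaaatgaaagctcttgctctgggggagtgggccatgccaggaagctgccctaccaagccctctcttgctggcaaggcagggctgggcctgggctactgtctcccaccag
IKZF1 promoter: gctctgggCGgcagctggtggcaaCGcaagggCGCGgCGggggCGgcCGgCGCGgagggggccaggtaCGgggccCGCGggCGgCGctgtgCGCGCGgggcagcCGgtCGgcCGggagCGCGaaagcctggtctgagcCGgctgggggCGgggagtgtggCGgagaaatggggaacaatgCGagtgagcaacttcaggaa

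The windows at HMGB1P1 (chr20:57481456-57481755), FLI1 (chr11:128725656-128725955) and CD53 (chr1:110787626-110787925) were chosen to show the short motifs of lymphoid factors. Capitals mark, on either strand, TCCCNNGGG (EBF) and ATTTGCAT (OCT) at HMGB1P1, TGTGGTT (RUNX) and CAGCTG (an E-box) at FLI1, and AGGAAGT (ETS) and CAGCTG at CD53.
HMGB1P1 region: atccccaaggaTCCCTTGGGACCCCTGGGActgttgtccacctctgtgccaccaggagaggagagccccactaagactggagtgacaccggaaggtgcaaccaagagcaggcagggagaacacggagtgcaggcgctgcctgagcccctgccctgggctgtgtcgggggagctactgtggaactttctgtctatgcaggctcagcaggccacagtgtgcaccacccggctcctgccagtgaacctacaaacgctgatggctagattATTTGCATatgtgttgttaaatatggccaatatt
FLI1 intronic region: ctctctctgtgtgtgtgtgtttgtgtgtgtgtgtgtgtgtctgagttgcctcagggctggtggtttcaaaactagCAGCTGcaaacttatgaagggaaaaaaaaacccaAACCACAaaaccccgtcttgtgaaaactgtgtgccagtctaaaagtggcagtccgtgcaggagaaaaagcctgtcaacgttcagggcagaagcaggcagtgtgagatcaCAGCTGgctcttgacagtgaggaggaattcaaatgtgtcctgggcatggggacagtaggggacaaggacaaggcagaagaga
CD53 region: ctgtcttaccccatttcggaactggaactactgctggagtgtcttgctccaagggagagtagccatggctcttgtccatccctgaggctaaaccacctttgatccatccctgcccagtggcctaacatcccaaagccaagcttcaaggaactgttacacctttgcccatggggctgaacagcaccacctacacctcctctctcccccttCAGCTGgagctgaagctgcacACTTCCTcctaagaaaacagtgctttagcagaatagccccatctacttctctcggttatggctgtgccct

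The last window belongs to a region that rose with bryostatin in REH, described further on. It lies at CSPG4 (chr15:75700026-75700325), and capitals mark CAGGTG (an E-box).
CSPG4 intronic region: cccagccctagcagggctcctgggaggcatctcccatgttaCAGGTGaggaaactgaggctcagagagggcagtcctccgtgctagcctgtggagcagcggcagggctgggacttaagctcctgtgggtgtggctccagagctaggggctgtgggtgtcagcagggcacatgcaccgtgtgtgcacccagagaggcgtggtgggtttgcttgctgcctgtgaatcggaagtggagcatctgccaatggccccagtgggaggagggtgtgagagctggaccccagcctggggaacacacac

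The base composition of the shared distal regions was not that of near-start regions with H3K4me3. Over the 112 windows of 300 bases, the median GC content was 57.5% and the median ratio of observed to expected CG dinucleotides was 0.27. At the 7506 shared near-start regions with H3K4me3 the medians were 68.0% and 0.80, and at the 244 shared distal regions with H3K4me3 they were 65.7% and 0.58. A GC content above 50% together with a ratio above 0.6, the usual mark of a CpG island, was found in 6 of the 112 windows (5.36%), in 47.5% of the distal windows with H3K4me3 and in 78.1% of the near-start windows with H3K4me3. Distal regions called in Raji and not REH had a median ratio of 0.19, and those called in REH and not Raji 0.28. The 137 shared near-start regions without H3K4me3 had a median GC content of 59.7% and ratio of 0.23, so a low ratio was not particular to distal regions. These are descriptions of sequence with no test.

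Motifs of lymphoid factors were spread over the windows. The ETS letters CCGGAAGT or AGGAAGT were found in 24 windows (21.4%), against 12% of all 7999 shared regions. All 24 held AGGAAGT, and none held the CG-containing CCGGAAGT, which 5.48% of all shared regions had. The RUNX letters TGTGGTT were in 16 windows (14.3% against 2.83%), and the E-boxes CAGCTG or CAGGTG in 60 (53.6% against 37.5%). TCCCNNGGG (EBF) was found in 19 windows (17.0% against 13.2%), GAAANNGAA (IRF) in 12 (10.7% against 4.24%), and GGAANNGAA, the composite of ETS and IRF sites, in 9 (8.04% against 5.10%). ATTTGCAT, the octamer of OCT factors, was in 5 (4.46% against 0.825%), GGGACTTTC or GGGAATTTC (NF-kB) in 3 (2.68% against 0.575%) and TGACTCA (AP-1) in 6 (5.36% against 2.95%).

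Of the 7999 shared regions, 7506 lie near starts with H3K4me3, so distal regions of a single line are given beside them. Distal regions called in Raji and not in REH held E-boxes in 59.8%, AP-1 letters in 9.09% and EBF letters in 11.4%, and those called in REH and not in Raji in 51.1%, 5.93% and 20.3%. ETS letters were in 15.2% and 15.3% of these classes, RUNX letters in 8.33% and 7.31%, and IRF letters in 3.79% and 8.07%. The order of the classes depended on the window for some motifs. In 500-base windows RUNX letters were in 15.2% of the 112 and in 17.0% and 12.2% of the 2 classes, and E-boxes in 75.9%, 73.9% and 67.3%. In 150-base windows AP-1 letters were in 4.46%, 6.82% and 2.77%. The 137 shared near-start regions without H3K4me3 held ETS letters in 22.6% of 300-base windows, E-boxes in 56.9%, EBF letters in 19.0% and composite letters in 10.2%. RUNX, IRF and OCT letters, with higher shares in the 112, were in 9.49%, 8.03% and 1.46% of them. No share was tested, and none is particular to the 112.

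Promoter and insulator motifs were found in few windows. GGGGCGGGG, bound by SP and KLF factors, was in 6 windows (5.36%), against 24.6% of all shared regions, and in 2.27% and 2.90% of the distal regions of Raji and of REH alone. AGGTGGCAG or AGGGGGCGC, parts of the CTCF site, were in 1 window (0.893% against 3.46%), while AGATAAG, the letters of the blood factor family named after this site, was in none (against 0.963%). The MEF2 letters CTATTTATA were in 1 window. Both strands were read, and the ETS, IRF and composite letters can overlap. No motif of the 13 families was found in 18 windows and motifs of 1 family in 45, which says only that these letters are not in these windows. The shares rose and fell with the window: RUNX letters were in 10.7% of 150-base and 15.2% of 500-base windows, and ETS letters in 11.6% and 35.7%.

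The shared distal regions were 1580 to 11650 bp wide, with a median of 3385 bp, and covered 449.1 kb in all. Of the 112, 44 lay between genes, 42 in an intron of a protein-coding gene, 15 over an exon of one and 11 in a lncRNA gene only. The nearest protein-coding start was a median of 19751 bp away, and 22 regions were more than 50 kb from it. Of the 57 regions within a protein-coding gene, the start of that gene was the nearest for 51. The 112 regions were nearest to 104 different genes. KLF13, a Krüppel-like transcription factor gene, had 3 of them, and IKZF1, FLI1, TNS3, ODF1, DENND3 and HMGB1P1 had 2 each. In 5 places 2 regions lay within 50 kb of each other: in TMCC2 and NUAK2, at ODF1, at DENND3, in FLI1 and at HMGB1P1. At 7 regions a start of another kind of gene, mostly a pseudogene, lay within 5 kb.

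The distance rule had a sharp edge. The last regions outside it lay 4713 bp from the start of IRF1, 4715 bp from TOM1 and 4982 bp from CDS2. The first inside lay 5064 bp from LHPP, 5296 bp from RPL19 and, upstream of IKZF1, 5379 bp from a lncRNA start. A further 154 distal regions without H3K4me3 were called in 5 of the 6 untreated libraries, and 133 of these were missing only from untreated Raji library 2. Of the 244 shared distal regions with H3K4me3, 46 had it in 1 of the 12 libraries and 42 in 12 of 12.

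Signal at the shared distal regions was below that of promoters, and it is given as a description since peak calls chose the regions. Relative signal is the total signal over a region divided by the median of the 3237 reference regions called in all 18 H3K4me2 libraries, 16 of which are shared distal regions. The median shared distal region was at 0.475, 0.476 and 0.531 in the untreated Raji libraries and at 0.531, 0.493 and 0.456 in the untreated REH libraries. Shared near-start regions with H3K4me3 had medians of 0.737 in Raji and 0.688 in REH. As a geometric mean over the 6 untreated libraries, the 112 regions ranged from 0.303 to 1.44, and 12 were above the median reference region. A region's value sums every peak that overlaps it over its whole length, so a peak that joins neighbouring regions raises it.

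**Figure D1:**
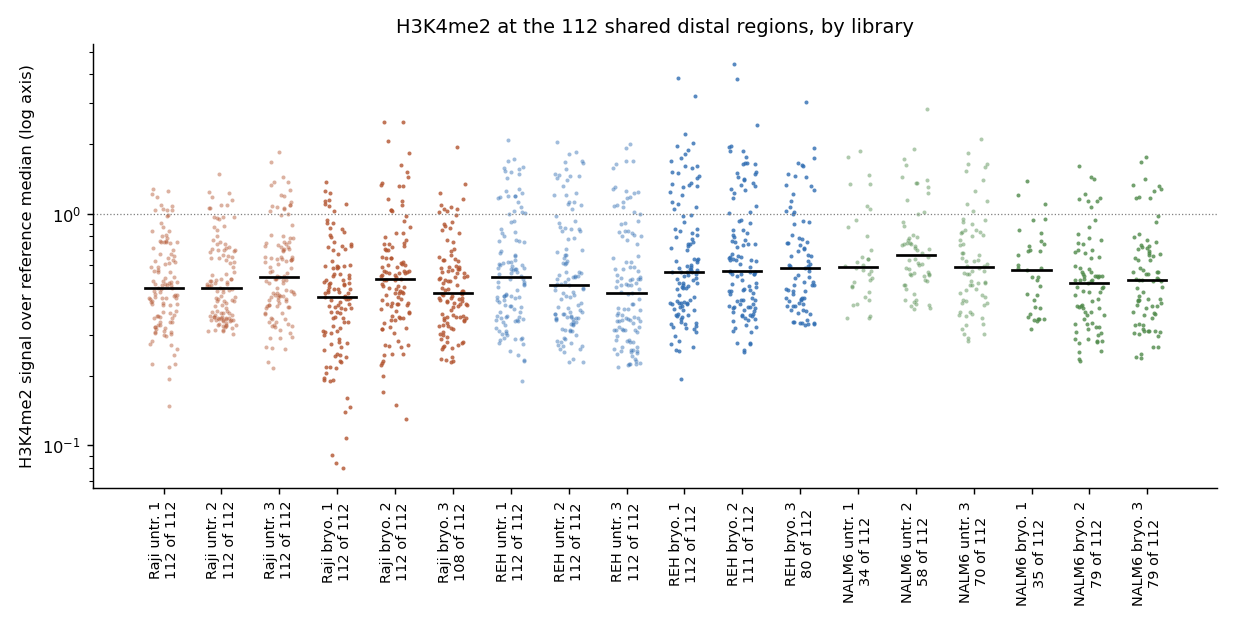
Relative H3K4me2 signal, in multiples of the median reference region on a log axis, of the shared distal regions in each of the 18 H3K4me2 libraries, with a point for each region with a peak (their number under each library), a black line at the median of these and a dotted line at the reference. In the untreated Raji and REH libraries the medians lie between 0.456 and 0.531.

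The strongest region lay between genes on chromosome 20, 10166 bp from the start of HMGB1P1 (chr20:57480021-57485200), which GENCODE lists as protein-coding. Its relative signal was 1.09, 1.06 and 1.43 in untreated Raji and 1.69, 1.85 and 1.69 in untreated REH, so that REH was higher with no overlap. In untreated NALM6 it was at 0.506, 0 and 0.333.

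The next was the IKZF1 intronic region (chr7:50334201-50340930), 6552 bp from the nearest start of its gene. It was at 1.26, 1.48 and 1.85 in untreated Raji, at 1.17, 0.973 and 0.994 in untreated REH, and at 0, 0.736 and 0.737 in untreated NALM6. The highest REH library was below the lowest Raji library. The promoter of IKZF1 had an H3K4me3 peak in 3 of 3 libraries of each line and treatment. A second IKZF1 region, upstream of the gene at chr7:50281001-50283660, was weaker, at 0.697, 0.643 and 0.638 in untreated Raji and 0.440, 0.340 and 0.314 in untreated REH, again with Raji higher and no overlap.

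FLI1, an ETS family transcription factor gene active in blood stem and lymphoid cells, had a pair of intronic regions at chr11:128712851-128722180 and chr11:128723731-128728620. The one farther from the start was at 1.03, 0.963 and 1.37 in untreated Raji and 1.07, 1.20 and 0.902 in untreated REH, and these ranges overlap. The one nearer the start was at 0.910, 0.424 and 1.19 in untreated Raji and 1.53, 1.66 and 1.28 in untreated REH, with REH higher. In treated Raji library 2, 1 peak covered both, and each was at 2.49.

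NEK6, which encodes a kinase of mitosis, had a region 37916 bp from its start (chr9:124215131-124219690) with close values in both lines. It was at 1.27, 1.23 and 1.21 in untreated Raji and at 1.19, 1.23 and 1.18 in untreated REH. The KLF13 region at chr15:31262561-31268540 was at 1.03, 0.970 and 1.06 in untreated Raji, at 1.19, 1.10 and 1.07 in untreated REH, and at 1.34, 1.61 and 1.60 in untreated NALM6. CSPG4, the gene of the cell surface proteoglycan NG2, had the widest gap among the strong regions. Its intronic region (chr15:75698291-75704090) was at 0.499, 0.664 and 0.587 in untreated Raji, 2.07, 2.05 and 2.00 in untreated REH, and 0, 1.44 and 1.52 in untreated NALM6. The other regions among the 10 strongest lay at SYNDIG1L, SEMA7A (a membrane semaphorin) and PRKCE (protein kinase C epsilon).

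Genes known in B cells were found among the neighbours, and 13 of the 112 regions had a gene of the lists read here as nearest or host gene. Of 36 B lineage transcription factor genes, IKZF1 and FLI1 had 2 regions each and ID3 and FOXO1 had 1 each. These 6 regions are 5.36% of the shared distal regions, against 0.725% of all shared regions, 2.87% of the shared distal regions with H3K4me3 and 3.41% of the distal regions called in Raji and not in REH. When the nearest protein-coding or lncRNA start was used in place of the nearest protein-coding start, 3 remained. ID3 encodes an inhibitor of E proteins, and its region (chr1:23611441-23616180) was at 0.765, 0.682 and 1.07 in untreated Raji and 0.345, 0.342 and 0.318 in untreated REH, with Raji higher. FOXO1 encodes a forkhead factor needed for B cell development. Its region (chr13:40388391-40389970) was at 0.533, 0.441 and 0.395 in untreated Raji and 0.347, 0.385 and 0.389 in untreated REH. There the lowest Raji library was only just above the highest REH library.

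Of the B cell receptor and surface list, CD53, a tetraspanin of leukocytes, had a region 82328 bp from its start (chr1:110786091-110788860), and PRKCB, the kinase C isoform downstream of the B cell receptor, had one in an intron (chr16:23858321-23865390). CD53 was at 0.744, 0.621 and 0.645 in untreated Raji, 0.619, 0.461 and 0.521 in untreated REH, and 0.637, 0.632 and 0.597 in untreated NALM6. The lowest Raji library was just above the highest REH library, and 2 of the 3 NALM6 libraries lay within the Raji range. The chemokine receptor, integrin and adhesion list had regions at ITGA4 (the alpha 4 integrin subunit) and SLAMF7 (a lymphocyte surface receptor). ITGA4 was at 0.618, 0.508 and 0.447 in untreated Raji and 0.585, 0.535 and 0.472 in untreated REH, ranges that overlap. The list of kinase C and early response genes had those at PRKCE and PRKCB, the cytokine list 1 in SH2B3 (an adaptor that restrains cytokine signalling), and the chromatin list 1 in SMARCA4 (the SWI/SNF ATPase). These counts are small. The surface list and the adhesion list each took 1.79% of the 112, against 0.563% and 0.325% of all shared regions, the kinase C list 1.79% against 0.500%, and the cytokine and chromatin lists 0.893% each, against 0.200% and 0.538%. No shared distal region had a gene of the cell cycle list or of the list of other lineages, which hold only 0.338% and 0.05% of all shared regions.

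The starts of the 104 neighbour genes more often carried active marks than protein-coding starts at large. H3K4me3 was called in all 3 untreated libraries at 77 of them in Raji (74.0%, against 51.9% of 20033 protein-coding genes), at 68 in REH (65.4% against 42.2%) and at 53 in NALM6 (51.0% against 32.4%). Neighbour genes of other distal classes are given beside these. For shared distal regions with H3K4me3 the shares were 75.6%, 67.7% and 47.5% in Raji, REH and NALM6, and for distal regions called in Raji and not in REH 76.5%, 59.7% and 50%. For distal regions called in REH and not in Raji they were 50.4%, 52.0% and 38.7%. H3K27me3, called in at least 2 of 3 untreated libraries, was at 18 in REH (17.3% against 13.2%) and at 25 in NALM6 (24.0% against 9.64%). Neighbour genes of distal regions called in REH and not in Raji had it at 17.8% in REH and 25% in NALM6, and those of shared near-start regions without H3K4me3 at 17.2% and 24.2%. The count for Raji was 36 (34.6% against 16.1%) and includes the library that goes against its label. These shares are descriptions.

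NALM6 took no part in choosing the regions, and the share of them with H3K4me2 there varied widely between libraries. A peak was called over 34, 58 and 70 of the 112 regions in the untreated NALM6 libraries, and over 35, 79 and 79 in the treated ones. The mean was 48.2% ± 16.4 (SD, n = 3) untreated and 57.4% ± 22.7 treated, which did not pass an exact permutation test (two-sided, p = 0.5, where the smallest p possible is 0.1). Within replicate numbers the share was higher with bryostatin in 3 of 3 pairs (exact sign-flip test, two-sided, p = 0.25, the smallest that 3 pairs allow), a test added after seeing the data. The low values, 34 and 35, are those of the replicate 1 libraries, and the mean over the other 4 libraries was 63.8% ± 8.88 (SD). In those 4, 56 regions had a peak in 4 of 4 and 30 in none. Across the 6 libraries, 28 regions had no peak, 65 had one in 1 to 5, and 19 in 6 of 6.

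In each NALM6 library the shared distal regions had a peak more often than distal regions of a single line. Their share was 46.5 percentage points above that of the 264 distal regions called in Raji and not in REH (26.7 to 61.8 points over the libraries, higher in 6 of 6). It was 25.1 points above that of the 793 distal regions called in REH and not in Raji (16.5 to 31.2 points, higher in 6 of 6). It differed by -12.4 points from that of the shared distal regions with H3K4me3 (-18.2 to -5.71 points, lower in 6 of 6) and by -26.4 points from that of shared near-start regions with H3K4me3 (lower in 6 of 6). For each of these 4 differences the exact sign-flip test gave p = 0.03125, the smallest that 6 libraries allow, and an adjusted p = 0.0488 over 25 such tests. The difference from shared near-start regions without H3K4me3 was -7.15 points and did not pass (lower in 5 of 6, exact sign-flip test, p = 0.0625, adjusted p = 0.0822). Replicate numbers pair the NALM6 and the REH libraries, so the test was also run, after seeing the data, on the means of the 3 numbers. Its smallest exact p is 0.25, which each of these differences gave. The sign-flip p-values here and below are thus too small where libraries are not independent. The classes also differ in signal and width, which were not matched here, and 1 bp of overlap counted as a peak. The median width was 3385 bp for the 112, against 2545 bp for distal regions of Raji and 2920 bp for those of REH alone. It was 3740 bp for shared distal and 3730 bp for shared near-start regions with H3K4me3.

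**Figure D2:**
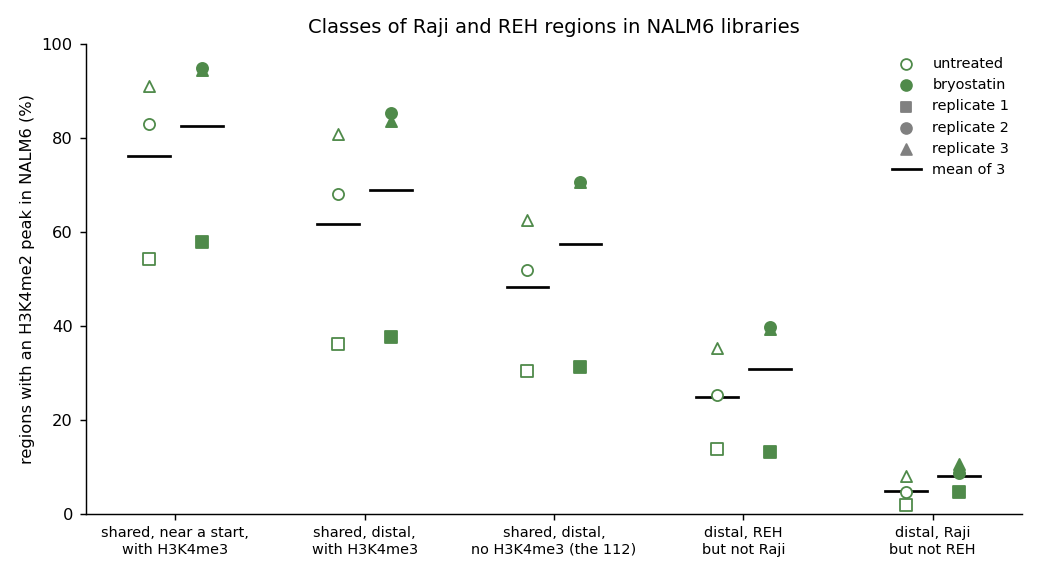
Percent of each class of H3K4me2 region (x axis) with an H3K4me2 peak in NALM6 (y axis), with a mark for each of the 6 libraries and a line at the mean of each 3. The shared distal regions lie between 30.4% and 70.5%, and in each library above both classes of distal regions of a single line.

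The 19 regions with a peak in 6 of 6 NALM6 libraries had median relative signals of 0.575 in Raji and 0.739 in REH, and the 28 with none had 0.455 and 0.358. Among the 19 were those at CD53, SYNDIG1L, SEMA7A, FKBP5 (a co-chaperone of the glucocorticoid receptor), PDE4B (a cAMP phosphodiesterase), HPCAL1, ZC3HAV1 (an antiviral zinc finger protein) and a pair at KLF13. Among the 28 were those at FOXO1, SLAMF7, EPHA2 (an ephrin receptor), CST7 (cystatin F), AUTS2, CMIP and both at ODF1. Neither group was tested for function.

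H3K4me3 was nearly absent from the regions in NALM6 too. It was called over 1 region in 1 of 6 libraries, a mean of 0.149%. That was 29.9 points below the share at the shared distal regions with Raji or REH H3K4me3 and lower in 6 of 6 libraries (exact sign-flip test, p = 0.03125, adjusted p = 0.0488). Distal regions of a single line nearly lacked it too. The share differed by 0.149 points from that at distal regions called in Raji and not in REH (higher in 1 of 6). From that at distal regions called in REH and not in Raji it differed by -0.671 points (lower in 5 of 6, exact sign-flip test, p = 0.0625, adjusted p = 0.0822).

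H3K27me3 was called at few of the regions in REH. It was called over 4, 3 and 3 of the 112 in untreated and 3, 3 and 4 in treated libraries, and these belong to 4 regions. EPHA2, CSRP1 (a LIM domain protein) and UACA had it in each of the 6 libraries. The mean share differed by -0.78 points from that at shared distal regions with H3K4me3 (lower in 4 of 6, exact sign-flip test, p = 0.219, adjusted p = 0.249). It was 4.42 points below that at distal regions called in REH and not in Raji (lower in 6 of 6, exact sign-flip test, p = 0.03125, adjusted p = 0.0488).

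In Raji, H3K27me3 was called over 0, 8 and 19 regions in untreated and 0, 0 and 15 in treated libraries. The 8 belong to the library that goes against its label and the higher counts to the replicate 3 libraries, so the spread between replicates exceeds any difference between treatments. These libraries held 819, 24143 and 73265 H3K27me3 peaks untreated and 3424, 2778 and 101702 treated. A count of 0 thus comes from libraries with few peaks and does not show that the mark was absent. In NALM6 the counts were 5, 24 and 19 untreated and 1, 26 and 33 treated, from libraries of 1444, 21298 and 7219 and of 590, 35029 and 78673 peaks. There 23 regions had H3K27me3 in at least 3 of 6 libraries, and 7 of these had no H3K4me2 peak in any NALM6 library. Of all 112 shared distal regions, 28 had no such peak, which is a similar share. A link between the 2 marks was not tested. The 7 regions were nearest to C1orf174, ODF1, DENND3, PSAP, CALHM3, FMNL3 and CST7. The share with H3K27me3 in NALM6 was 8.62 points above that at distal regions called in Raji and not in REH, and higher in 6 of 6 libraries (exact sign-flip test, p = 0.03125, adjusted p = 0.0488). It differed by -2.84 points from that at distal regions called in REH and not in Raji (lower in 5 of 6, exact sign-flip test, p = 0.09375, adjusted p = 0.117). Exact permutation tests of treated against untreated shares, two-sided, gave p = 0.7 in Raji, 1 in REH and 0.7 in NALM6.

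Most of the regions were still called after bryostatin. In treated Raji the peak was found at 112, 112 and 108 of the 112 regions, and in treated REH at 112, 111 and 80. In treated REH library 3, 71.4% of the 112 were called, against 84.8% of the shared distal regions with H3K4me3, 93.1% of shared near-start regions with H3K4me3 and 57.9% of the distal regions called in REH and not in Raji. The 32 that treated REH library 3 lacked were weak ones, with a median of 0.371 over the untreated libraries against 0.496 for all 112. In all, 76 regions were called in all 6 treated libraries. To compare treatments, peaks of the libraries of a comparison were merged anew, and regions called in every one of them were tested with limma on log2 total signal. The untreated libraries of Raji and REH, which chose the regions, are 1 side of these comparisons. Fit values below are multiples of the median tested region in the same library. The pair of FLI1 regions fell in 1 merged region and is counted as 2 with the same values. The 80 regions tested in REH, 108 in Raji and 78 in fits of both lines were thus 79, 107 and 77 merged regions.

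In REH, 8 of the shared distal regions rose with bryostatin and none fell. Of the 112, 80 were tested and 32 were not, being absent from at least 1 treated library. The 8 are 10.0% of the 80, where 1.45% of all 10791 tested regions were called in either direction and 1.42% were called higher (limma, Benjamini-Hochberg adjusted p under 0.05). The groups did not overlap, with bryostatin higher, at 15 of the 80 (7.01% of all regions), and with bryostatin lower at 6 (7.7% of all regions). The median log2 difference was 0.11 over the 80 regions and -0.02 over all regions, and 52 of the 80 were above 0. The genes near them differ in role, so 7 of them are given one by one.

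The CSPG4 intronic region was at 2.98, 3.01 and 3.02 in untreated REH and 4.65, 5.42 and 4.52 with bryostatin. The lowest treated library was far above the highest untreated one, a log2 difference of 0.69 (SE 0.09, limma adjusted p = 0.00100). The CALHM3 region, whose nearest gene encodes a calcium-regulated channel subunit, rose from 0.635, 0.641 and 0.614 to 1.04, 1.05 and 0.901. Its log2 difference was 0.66 (SE 0.10, limma adjusted p = 0.00378). These 2 regions were called whichever library was left out.

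SNX9 encodes a sorting nexin of endocytosis, and its region (chr6:157760001-157765780) rose from 0.853, 0.723 and 0.617 to 1.19, 1.14 and 1.11. The log2 difference was 0.66 (SE 0.12, limma adjusted p = 0.0101), and it was called in 4 of the 6 fits that left out a library. No treated library overlapped an untreated one.

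The NEK6 region rose from 1.71, 1.80 and 1.78 to 2.59, 2.63 and 2.14 (log2 difference 0.47, SE 0.09, limma adjusted p = 0.0209). The region near IFFO2 (chr1:18926051-18929350), a gene related to intermediate filaments, rose from 1.44, 1.55 and 1.38 to 1.96, 2.00 and 1.88 (log2 difference 0.42, SE 0.08, limma adjusted p = 0.0200). Both were called in 2 of the 6 fits that left out a library. PTK2B encodes the calcium-activated kinase PYK2, and its region rose from 1.72, 2.05 and 1.97 to 2.49, 2.77 and 2.45 (log2 difference 0.43, SE 0.09, limma adjusted p = 0.0348). The region in SH2B3, nearest to the start of ATXN2 (chr12:111444221-111447390), rose from 1.58, 1.82 and 1.35 to 2.89, 2.89 and 1.89 (log2 difference 0.68, SE 0.15, limma adjusted p = 0.0443). These last 2 were called in 1 of 6 such fits. The ATXN2 value is that of a longer joined region that reached a gene start, and none of the others came within 5 kb of one.

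**Figure D3:**
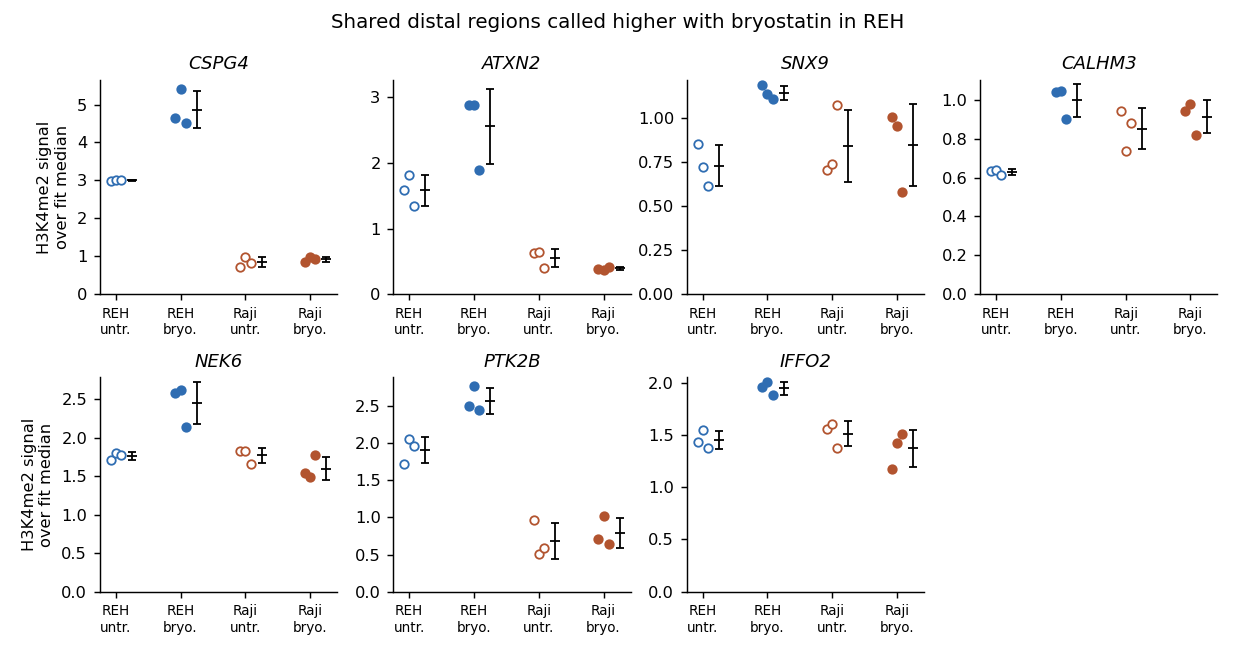
H3K4me2 signal (y axis, multiples of the median tested region) of 7 of the regions called in REH, in untreated and bryostatin-treated REH and Raji, with a point for each library and the mean with its SD beside them. In each of the 7 the lowest treated REH library is above the highest untreated one. Each line is from its own fit, with its own merged region and median. The regions can differ in width, with 13670 bp in REH and 2880 bp in Raji at ATXN2.

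Called length and signal per base both differed at these regions. The mean length of the peaks went from 5453 to 7677 bp at CSPG4, from 3370 to 5530 bp at SNX9, from 3887 to 6217 bp at NEK6 and from 7710 to 8110 bp at PTK2B. Mean signal per base in untreated and treated libraries was 320 and 270.4 RPKM at NEK6, 152 and 143 RPKM at SNX9, 386 and 437 RPKM at CSPG4, and 173 and 219 RPKM at PTK2B, and it was higher in treated libraries at 5 of the 8 regions. The median log2 change in called length was 0.16 over the 80 regions and 0.09 over all regions. With mean signal per base in place of total signal, none of the 80 was called (1 region of the 10791 was), and with maximum signal 2 were. The part of peak length, and of the greater depth of treated libraries, in the 8 calls was not tested further. Without treated REH library 3, 111 regions could be tested and 16 were called (14.4%, against 2.76% of all regions). With the replicate number as a block, 12 of the 80 were called, 11 higher and 1 lower (305 of all regions, against 157 without it).

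In Raji the log2 differences of the 7 regions named were between -0.48 and 0.23, and none of the 8 was called by limma. Each line's fit merged its own peaks, so the intervals tested in REH and Raji are not the same. At ATXN2 the tested region was 13670 bp wide in REH and 2880 bp in Raji. The starts of the neighbour genes gave no call in REH. Of the 83 neighbour genes with a tested H3K4me2 region at a start, none was called by limma, while 11 had an unadjusted p under 0.05, as did 1066 of the 10791 regions at large. The starts of NEK6 had log2 differences of 0.31 (limma adjusted p = 0.193) and 0.13, and those of PTK2B 0.36 (adjusted p = 0.342), 0.04 and -0.08. The starts of IFFO2 had -0.27 (limma adjusted p = 0.158) and -0.14, against 0.42 at the distal region.

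In Raji no shared distal region passed the test, and neither did any other region (0% of 9316 tested). Of the 112, 108 were tested, and 17 had an unadjusted p under 0.05 by limma, 16 of them lower with bryostatin, where 626 of all regions had one. The groups did not overlap, with bryostatin lower, at 16 of the 108 (14.8%, against 5.73% of all regions), and with bryostatin higher at 2 (1.85% against 4.97%). The median log2 difference was -0.15 over the 108 regions and -0.03 over all. With mean signal per base the groups did not overlap at 7 of the 108 with bryostatin lower and at 5 with it higher (415 and 575 of all regions), and the medians were -0.04 and 0.02. With maximum signal the counts were 9 and 0 (510 and 406 of all regions). Without centring each library on its median, all values shifted by 0.24, the median of the 108 became 0.09 and that of all regions 0.21, and lower groups without overlap numbered 7 (119 over all regions).

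The largest difference in Raji was at the region 75089 bp from the start of CST7, the gene of the protease inhibitor cystatin F (chr20:24870701-24874180). It was at 1.25, 1.56 and 1.44 in untreated and 0.267, 0.489 and 0.641 in treated Raji, with no overlap (log2 difference -1.69, SE 0.27, limma adjusted p = 0.0596). Without treated Raji library 3 it passed, with -1.96 (SE 0.24, limma adjusted p = 0.0368). The KLF13 region at chr15:31262561-31268540 was at 1.49, 1.43 and 1.46 in untreated and 0.770, 0.964 and 1.11 in treated Raji, also without overlap, but missed the adjusted threshold (log2 difference -0.64, limma adjusted p = 0.364). No H3K4me2 peak was called over the CST7 region in any NALM6 library. At the starts of 78 neighbour genes none was called in Raji by limma, and 9 had an unadjusted p under 0.05, as did 626 of the 9316 regions at large.

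In NALM6 only 20 of the 112 regions could be tested, and none was called (0% of 4128). By limma 3 of them had an unadjusted p under 0.05, at FKBP5, CD53 and C5orf15, each lower with bryostatin, where 56 of all regions had one. The CD53 region was at 0.649, 0.652 and 0.610 untreated and 0.387, 0.444 and 0.539 treated (log2 difference -0.49, limma adjusted p = 0.999). The groups did not overlap, with bryostatin lower, at 7 of the 20 (35%, against 6.27%), and with bryostatin higher at 0 (against 4.09%). With mean signal per base 2 of the 20 were lower with no overlap (153 of all 4128 regions), and with maximum signal also 2 (162 of all regions). With quantile normalization 4 of the 20 were lower and 1 higher (209 and 190 of all regions). Without centring 0 of the 20 and 0 of all regions were apart in either direction. Without the replicate 1 libraries 56 regions could be tested and none was called, while 20 had an unadjusted p under 0.05 by limma, each lower with bryostatin, against 824 of all 8891 regions in that direction. The groups, then of 2 libraries each, did not overlap at 32 of the 56 with bryostatin lower and at 2 with it higher, against 2439 and 1850 of all regions.

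The difference of the bryostatin responses of REH and Raji was tested in 1 model. Of 7267 regions 2 were called (0.0275%), and of the 78 shared distal regions tested none was, with a lowest adjusted p = 0.206 by limma, at HIVEP3 and CST7. An unadjusted p under 0.05 was found at 24 of the 78 (30.8%), all with REH above Raji, against 3.59% of all regions in that direction. The median difference of the responses was 0.34 on the log2 scale over the 78 and 0.01 over all regions. Without centring these were 0.07 and -0.26, and 8 of the 78 had an unadjusted p under 0.05, 6 of them with REH above, as did 29 of the 7267 in that direction. With mean signal per base 11 of the 78 had an unadjusted p under 0.05 with REH above (245 of the 7267), and the median was 0.12. The largest values were 1.59 at CST7, 1.06 at RPL19 (limma adjusted p = 0.569) and 1.01 at HIVEP3, a gene of a zinc finger protein that binds NF-kB sites. Without treated Raji library 3, those at CST7 and RPL19 passed (limma adjusted p = 0.0321 for each), and without treated REH library 3 the one at HIVEP3 did (adjusted p = 0.0225). At no region were the groups apart in opposite directions in both lines.

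Untreated REH and Raji differed at many of the regions in either direction, given as a description since these libraries chose them. On a scale centred on all 7999 shared regions, REH minus Raji ranged from -1.96 to 2.43 in log2 units, with a median of -0.07. REH was higher with no overlap at 35 of the 112 (27.6% of all shared regions were) and Raji at 30 (28.4% were). On the scale of the reference regions, used for the single regions above, these counts were 34 and 37, so which line had more depends on the scale.

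The treated H3K4me2 libraries took no part in the choice, and the lines were tested in them. The treated H3K4me3 libraries did, and 115 regions would have been chosen without them. With peaks of the treated libraries merged anew, 78 of the 112 regions could be tested. This is 2 more than the 76 that had a peak over the region itself in each treated library, since a merged region can be longer. Of the 78, 46 differed (59.0%, against 49.2% of 7996 regions by limma). REH was higher at 41 (52.6%, against 24.9%) and Raji at 5 (6.41%, against 24.3%), with a median difference of 0.50. The 34 regions that could not be tested had a median untreated difference of -0.48, toward Raji, and that of the 78 was 0.15. Without treated REH library 3, 108 regions could be tested, REH was higher at 47 (43.5%, against 19.9%) and Raji at 15 (13.9%, against 20.2%). With mean signal per base, 26 of the 78 were called, 21 with REH higher and 5 with Raji higher. Over all 7996 regions 1963 were, 1063 with REH higher and 900 with Raji higher.

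The region near RPL19, a ribosomal protein gene, was at 0.260, 0.297 and 0.559 in treated Raji and 2.21, 2.30 and 2.28 in treated REH (log2 difference 2.69, SE 0.24, limma adjusted p = 9.69e-06). The FKBP5 region was at 0.216, 0.466 and 0.458 in treated Raji and 2.26, 2.26 and 2.07 in treated REH (log2 difference 2.61, SE 0.25, limma adjusted p = 1.75e-05). In both, the REH libraries were several times the highest Raji library. CSPG4 was at 0.808, 0.965 and 0.885 against 4.55, 5.31 and 4.32 (log2 difference 2.41, SE 0.11, limma adjusted p = 2.59e-07). The regions at GPR3, C17orf67, SIK1 (a salt-inducible kinase), ATXN2, DENND3 and PTK2B were higher in REH by 1.73 to 2.10 on the log2 scale. For ATXN2 this is a joined region of 14540 bp that reached a gene start. Its mean signal per base was 129, 84.4 and 137 RPKM in treated Raji and 155, 160 and 130 RPKM in treated REH. Over the shared distal region itself, the untreated difference at ATXN2 was 0.31.

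Raji was higher at PALD1, SLC37A1 (a sugar phosphate transporter), CCDC88C, SMARCA4 and the IKZF1 region upstream of the gene. The IKZF1 region was at 1.08, 1.24 and 0.922 in treated Raji and 0.581, 0.640 and 0.540 in treated REH, with no overlap (log2 difference -0.87, SE 0.13, limma adjusted p = 4.08e-04). PALD1 was at 1.67, 1.93 and 2.12 against 1.06, 1.10 and 0.827 (log2 difference -0.94, SE 0.14, limma adjusted p = 2.77e-04). The SMARCA4 value (log2 difference -0.68, limma adjusted p = 0.00697) is that of a longer region joined to the promoter. In this comparison 8 of the tested regions came within 5 kb of a start once peaks were merged anew, 4 of them called.

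**Figure D4:**
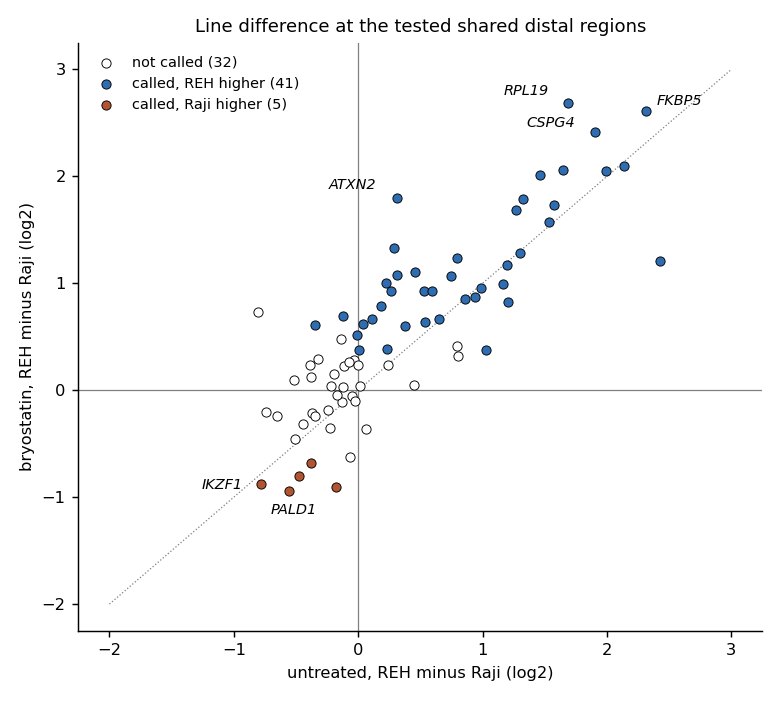
Difference of REH and Raji in H3K4me2 signal, in log2 units, of the 78 tested shared distal regions in untreated (x axis) and bryostatin-treated cells (y axis), with a point for each region and filled points for those called in treated cells. Of the 46 called points, 41 lie above 0 (REH higher) and 5 below. Treated differences are of regions merged anew, which can be longer than the shared distal regions of the x axis, as at ATXN2.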

How the data were processed

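CUT&Tag libraries for H3K4me2, H3K4me3 and H3K27me3 were taken as the authors' SEACR stringent peaks on hg38, 54 in all. The 18 IgG samples are not used here. Bryostatin was given overnight per the labels, while a legend of the study gives a full day. The mark written H3K27me3 is named so in the sample labels; the series text also writes H3K27me2. The authors' notes name bcl2fastq, Trim Galore, Bowtie2, SEACR and DESeq2, with no versions given in the sources used here. The deposited total and maximum signal of a peak are coverage, in RPKM with 10 bp bins for 48 libraries (normalised by the authors). The steps of the peak heights, whole multiples within 0.05 of 1 read in all 48, gave their depth of 5.12 to 47.9 M mapped reads. The 6 replicate 1 libraries of NALM6 carry another scaling, not given in the sources used here.

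The regions, gene lists, motifs and tests were chosen with earlier results of these data known. Peaks on chromosomes 1 to 22, X and Y that overlapped by 1 bp were merged. A region's value is the total signal of the peaks that overlap it, whole. Because these values are sums of RPKM and not counts, limma 3.58.1 in R 4.3.3 (eBayes with trend, Benjamini-Hochberg adjustment over all regions tested, threshold 0.05) took the place of the authors' DESeq2. It was run on log2 total signal of regions called in all libraries of a fit, centred on the median, without a replicate block. It was also tested on simulated data, and the results of that are not given here. A shared distal region takes the value of the fit region that overlaps it. Shares were compared over libraries by exact sign-flip or permutation tests. A sign-flip test over the 3 replicate numbers was added after seeing the data.

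Regions named were the 10 strongest, up to 8 called per line and direction with bryostatin, up to 10 per direction between treated lines, up to 4 per gene list, and 3 on each side of the 5 kb distance. Others were chosen after their values were seen. Some regions, genes and sequences that these rules name are not reported here. Replicate numbers paired the REH libraries (correlations of same-numbered deviations 0.131, 0.203 and 0.205). In NALM6 the same-numbered values were 0.446, 0.402 and 0.436, but replicates 2 and 3 also correlated across numbers (0.354 and 0.406). There only the replicate 1 libraries, which share a scaling, stood apart. Replicate numbers did not pair the libraries of Raji (0.417, -0.250 and -0.308) or the treated libraries of the 2 lines. The alternatives were other signal measures, scaling, overlaps, peak thresholds, distances and windows, and leaving out each library. Intervals for shares cover counting error only.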

Additional observations from a re-analysis of the deposited data

How the results depend on the processing

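Of the values recomputed under alternatives, 112 that answer a comparison were counted as the same and 21 as moved. Among single motifs and gene lists the counts were 27 and 11. Values counted as the same were not all close. With an overlap of at least 0.5, H3K27me3 went from 6.25% ± 7.53 (SD) to 3.13% in Raji and from 16.1% ± 11.2 to 9.08% in NALM6. H3K4me2 in NALM6 went from 52.8% ± 18.4 to 35.1%. Calls in REH went from 8 to 12 with the replicate block. The number of shared distal regions fell from 112 to 34 when a peak had to cover at least 0.5 of the merged region, to 17 with the upper 0.5 of peaks by total signal, and to 53 with the same number of peaks kept in each library. Leaving out each library in turn gave 112 to 245 regions, the 245 without untreated Raji library 2. Calls in REH among the regions were 2 with maximum signal and 0 with mean signal per base, and leaving out a library gave 2 to 16, the lowest without treated library 1 and the highest without treated library 3. Over all regions REH had 157 calls, 51 with maximum signal, 1 with mean signal per base, 245 where a peak was needed in only 2 libraries of each group, and 62 to 346 when a library was left out. Leaving out a library gave 0 to 1 calls in Raji, 0 to 2 for the difference of the responses and 41 to 62 between the treated lines, where mean signal per base gave 26. Over all regions the difference of the responses had 2 calls, 19 without treated Raji library 3 and 18 without untreated Raji library 3. Between the treated lines mean signal per base left 1963 of 3931 calls. The cause was not tested.

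With the upper 0.5 of peaks, the share of regions with H3K4me2 in NALM6 was 19.6%, with H3K27me3 in REH 2.23%, with H3K4me2 in treated REH 50.9% and in treated Raji 61.0%, and the last was 83.9% with an overlap of at least 0.5. The replicate block gave 12 calls in REH, 0 in Raji, 0 in NALM6, 0 for the difference of the responses and 48 between the treated lines. Over all regions it gave 305 calls in REH, 1 for the difference of the responses (2 without it) and 3776 between the treated lines (3931 without it). Between the treated lines the same-numbered correlations were -0.05, 0.08 and -0.09. Treated REH library 3, from which 32 of the 112 were missing, had the fewest peaks of the REH H3K4me2 libraries (11119) at the highest depth (22.8 M mapped reads), and at most 79 were called in a NALM6 library. In NALM6 no more than 59 could be tested under any alternative.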

Other observations

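The octamer letters ATTTGCAT, bound by OCT1, which most cell types hold, and by OCT2, which is enriched in B cells, were spread unevenly over the classes of H3K4me2 region. They were in 5 of the 112 shared distal windows (4.46%), in 25 of the 264 distal windows called in Raji and not in REH (9.47%), in 6 of the 793 called in REH and not in Raji (0.757%), and in 2 of the 244 shared distal windows with H3K4me3 (0.820%). RUNX letters were in 14.3%, 8.33%, 7.31% and 6.97% of the same classes in 300-base windows, and in 15.2%, 17.0%, 12.2% and 9.84% in 500-base windows, so their order depends on the window. These shares were read after the sequences were searched and carry no test.

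Neighbouring regions of a gene differed between the lines alike at IKZF1 but not at FLI1. In untreated cells the pair upstream of and within IKZF1 was higher in Raji in both members. The FLI1 pair had 1 member with REH higher and 1 with overlapping values in untreated cells. In treated cells the lines overlapped at the intronic IKZF1 region. It was at 1.86, 2.43 and 2.71 in Raji and 2.12, 2.06 and 1.46 in REH, in multiples of the median tested region. The region near CST7, where no NALM6 library had H3K4me2, is the one with the largest difference in Raji. It is also one of 7 with H3K27me3 in at least 3 of 6 NALM6 libraries and no H3K4me2 there. Lack of H3K4me2 was about as common among all shared distal regions as among those with H3K27me3, and a link was not tested.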
